A study of Sus scrofa with 21 samples.

Results

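Enteric neuron and glia genes were followed across the distal small intestine of 21 piglets. They were a set of 8 genes chosen by name, and 7 of the 8 were matched to a gene of the deposited files by the Ensembl pig gene name, out of 18661 genes in all. The matched genes were TUBB3 (ENSSSCG00000002639), UCHL1 (ENSSSCG00000022945), ELAVL4 (ENSSSCG00000037291), RET (ENSSSCG00000010199), VIP (ENSSSCG00000004078), NOS1 (ENSSSCG00000009856) and SOX10 (ENSSSCG00000039315). S100B, a calcium-binding protein of glia, had no entry in the table of pig gene names and was not analysed here. MYH11 (ENSSSCG00000000146), the heavy chain of smooth muscle myosin, served as the reference for the muscle of the gut wall.

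The piglets were of the Danish Landrace/Yorkshire breed and 24 to 25 days old, and tissue was taken at euthanasia. The control piglets (n = 10) received a milk replacer, and the starch piglets (n = 11) received the same replacer with wheat added. The series title speaks of added starch, and that group is called starch here. Both groups were thus reared on milk replacer. The labels do not say which layers of the gut wall each sample held, and they give no sex, litter or processing date. Each piglet gave 1 RNA library, with between 6719264 and 8610458 expected counts, an expected count being an estimate of the reads of a transcript that need not be whole. On the first principal component of log2 levels over all tested genes, which held 44.0% of the variance, starch 3, control 8 and control 5 stood apart at 108.5, 103.8 and 91.1, with the next piglet at 36.2. The correlations with MYH11, between the 7 genes and with their nearest neighbours are therefore also given without these 3 libraries, as are the counts over gene lists.

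The enteric nervous system is a network of neurons and glia derived from the neural crest that lies in plexuses between the muscle layers and beneath the mucosa. It drives and coordinates the contraction of the gut, secretion and blood flow. Signalling from GDNF-family ligands through the receptor tyrosine kinase RET guides its precursors into the gut, and VIP and nitric oxide are the main messengers by which its inhibitory motor neurons relax smooth muscle. Glia surround these neurons and depend on the transcription factor SOX10.

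All 7 genes had reads in every piglet, and all 7 passed the filter on low counts that left 13127 genes for testing. Levels were modest. Per unit of coding length, in FPKM (fragments scaled for length and depth, as the authors deposited them), VIP stood highest with a median of 52.5 over the 21 piglets and a range of 27.1 to 120.3. UCHL1 followed at a median of 22.4 FPKM, TUBB3 at 17.0, ELAVL4 at 8.81, SOX10 at 6.80, RET at 4.35 and NOS1 at 0.63. MYH11 had a median of 693 FPKM. VIP exceeded UCHL1 in 21 of 21 piglets and RET exceeded NOS1 in 21 of 21. UCHL1 exceeded TUBB3, TUBB3 exceeded ELAVL4 and SOX10 exceeded RET in 20 of 21 piglets each. ELAVL4 and SOX10, next to each other in the order, were the closest pair, with ELAVL4 the higher in 16 of 21 piglets.

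Of 19 matched genes of neuronal structure and synapse 17 passed the filter on low counts, and of 19 matched transmitter genes 12 did. PRPH, STMN2 and NEFL, which mark peripheral and enteric neurons, were listed in all 21 piglets, at median levels of 18.3, 34.4 and 13.1 FPKM. GFAP, a filament protein of glia, was listed in 20 piglets at a mean of 1.46 CPM (counts scaled to library size with TMM factors) and did not pass the filter on low counts.

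**Figure D1:**
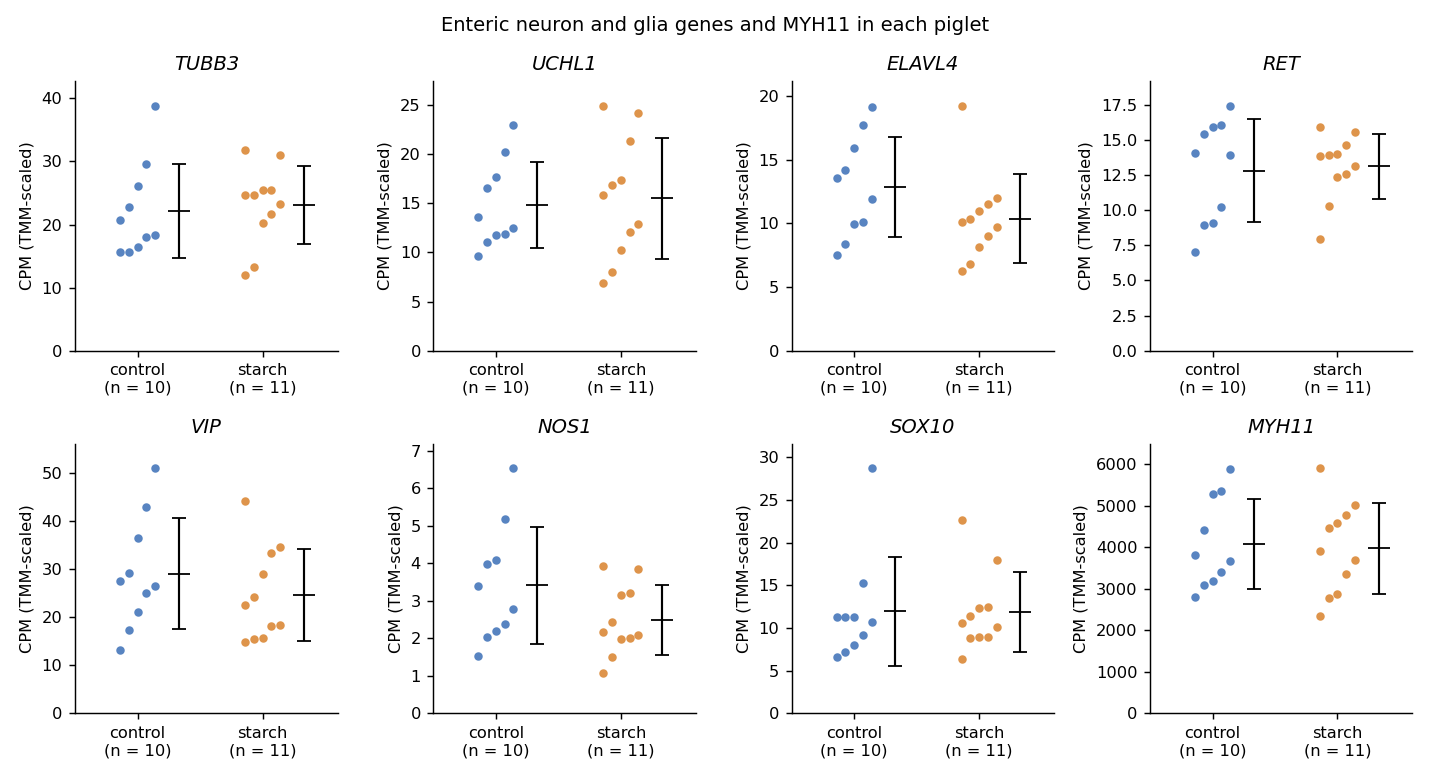
Each point is 1 piglet, with TMM-scaled CPM on the vertical axis and diet on the horizontal axis, and the black bars give the mean and SD of each diet. The 2 diets overlap for all 8 genes, and a single control piglet stands above the rest for SOX10, at 28.7 CPM.

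The first question was whether added starch changed these genes. For all 7 the difference between diets lay within the scatter among piglets. Across the whole table, 0 of 13127 genes (0%) passed an adjusted p of 0.05 in edgeR's quasi-likelihood test with Benjamini-Hochberg adjustment, and 174 genes (1.33%) had an unadjusted p under 0.05. None of the 7 was among these 174.

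Among the messages carried by most neurons, TUBB3 encodes a tubulin of neuronal microtubules. It ran from 15.6 to 38.9 CPM in control piglets with a median of 19.5, and from 12.1 to 31.9 CPM in starch piglets with a median of 24.6. The groups overlapped over most of their range, and control 8 and starch 3 were the highest of their diets. Means were 22.2 ± 7.46 CPM (SD, n = 10) and 23.0 ± 6.20 CPM (SD, n = 11), with a log2 fold change (starch minus control here and below) of 0.05 (SE 0.19, 95% confidence interval -0.34 to 0.44, adjusted p = 0.9998). Tubulin genes are closely related in their coding sequence, so the division of reads between TUBB3 and its paralogs rests on the authors' estimate.

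UCHL1, a deubiquitinase abundant in neurons and also made by some endocrine cells, spanned 9.62 to 22.9 CPM in control piglets (median 13.04) and 6.91 to 24.9 CPM in starch piglets (median 15.8). The starch group held both the lowest piglet, starch 9, and the highest, starch 3. The log2 fold change was 0.06 (95% interval -0.39 to 0.52). ELAVL4, the RNA-binding protein HuD, is often used to mark enteric neurons. Its lowest, median and highest values were 7.50, 12.7 and 19.1 CPM in control piglets and 6.27, 10.1 and 19.2 CPM in starch piglets. Starch 3 alone accounted for the upper end of its diet, since the next starch piglet lay at 11.98 CPM. The log2 fold change of ELAVL4 was -0.31 (SE 0.19, 95% interval -0.71 to 0.09, unadjusted p = 0.127, adjusted p = 0.9998). The files list 4 transcripts of ELAVL4, and the largest of them took 45.02% of its expected counts.

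RET, the receptor for GDNF-family ligands, was the steadiest of the 7. It read 7.02 to 17.4 CPM in control piglets (median 14.0) and 7.93 to 15.9 CPM in starch piglets (median 13.9), a log2 fold change of 0.03 (95% interval -0.30 to 0.37). Its coefficient of variation over the 21 piglets was 22.8%, against 9.84% from counting error alone. The lowest readings were those of control 2 and starch 11.

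The inhibitory transmitters followed. VIP encodes vasoactive intestinal peptide, which relaxes smooth muscle and drives epithelial secretion. It ran from 13.3 to 50.9 CPM in control piglets (median 26.9) and from 14.9 to 44.1 CPM in starch piglets (median 22.6). Control 8 was highest in the one diet and starch 4 in the other, and the ranges nearly coincided. The log2 fold change of VIP was -0.24 (SE 0.23, 95% interval -0.73 to 0.24, adjusted p = 0.9998). It was -0.12 without control 8 and -0.0591 without control 5, control 8 and starch 3.

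NOS1, the neuronal nitric oxide synthase, was the scarcest of the 7, with 8 to 55 counts per piglet and a median of 23. Control piglets lay at 1.54 to 6.54 CPM (median 3.09) and starch piglets at 1.08 to 3.92 CPM (median 2.17). The 4 highest piglets were all control animals, but control 8, at 1.54 CPM, was lower than 9 of the 11 starch piglets. The means were 3.41 ± 1.56 CPM (SD, n = 10) and 2.49 ± 0.927 CPM (SD, n = 11). NOS1 had the largest estimate among the 7, a log2 fold change of -0.45 (SE 0.26, 95% interval -0.99 to 0.08), with an unadjusted p of 0.0912 and an adjusted p of 0.9998. Counting error alone would give it a coefficient of variation of 20.6%, and the observed one was 45.1%.

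SOX10, the transcription factor of neural crest and glia, read 6.66 to 28.7 CPM in control piglets (median 11.0) and 6.32 to 22.7 CPM in starch piglets (median 10.54). Control 8 and starch 11 were the highest. The log2 fold change of SOX10 was -0.01 (95% interval -0.53 to 0.50), and without control 8 it was 0.23.

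**Figure D2:**
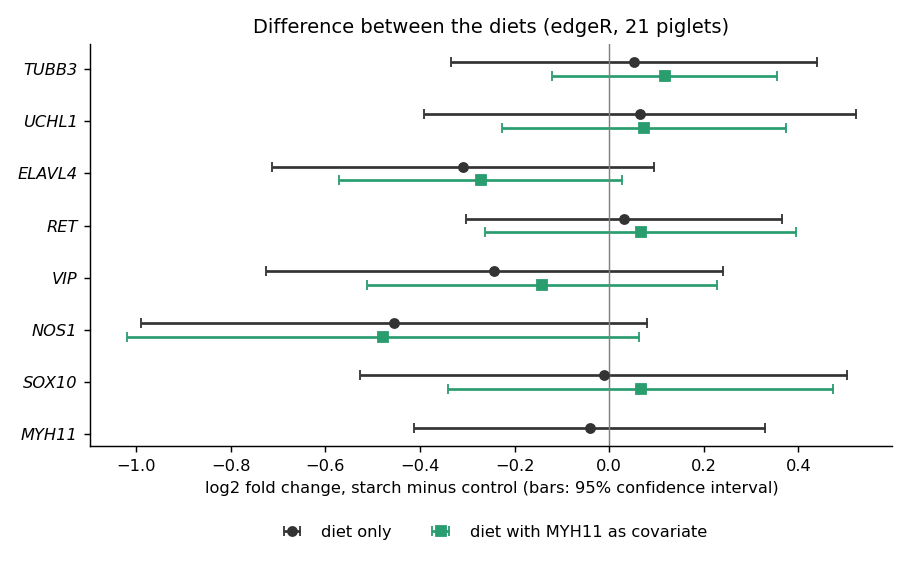
The horizontal axis is the log2 fold change of starch minus control from edgeR over 21 piglets, with 95% confidence intervals, for the diet alone (circles) and with MYH11 as a covariate (squares). Every interval includes 0, and NOS1 lies farthest from it, at -0.45 and -0.48.

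The genes around the 7 gave the same picture between the diets, with 0 of the tested members of each list past the threshold in either direction. Of 17 tested genes of neuronal structure and synapse, 5 had a fold change above 0 and 12 below, and the median log2 fold change was -0.06, against 0.00 over all tested genes. The 4 most abundant were MAP1B, a microtubule-associated protein, at -0.49 (84.2 ± 40.03 against 60.2 ± 19.6 CPM, unadjusted p = 0.0484), PRPH, the neuronal filament peripherin, at -0.06, the neurofilament NEFL at 0.09 and STMN2, a regulator of axonal microtubules, at -0.02. Of 12 transmitter genes 5 lay above 0 and 7 below (median -0.08), among them the peptide precursors SST (0.09) and SCG2 (-0.17) and the amine-synthesis enzymes DDC (-0.23) and TH (-0.42). The messages of CHAT, NPY and CALB2 were under the filter on low counts. Of 9 tested glial genes 2 lay above 0 and 7 below (median -0.07). This list was led in abundance by ERBB3 (-0.07), which intestinal epithelium also makes, followed by ITGA7 (0.01), CNP (0.06) and CRYAB (-0.03).

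RET's partners were measured as well. Its co-receptors GFRA1, which binds GDNF, and GFRA2, which binds neurturin, read 7.12 ± 4.52 and 3.41 ± 0.791 CPM on the control diet and 6.73 ± 2.70 and 3.21 ± 1.05 CPM on the starch diet, with log2 fold changes of -0.09 for both. The ligands GDNF and NRTN had at most 13 and 12 counts in any piglet and were not tested. Over the 16 tested neural crest and RET pathway genes, 7 fold changes lay above 0 and 9 below (median -0.06). The 4 most abundant were ECE1 (-0.10), which matures endothelin, DUSP6 (-0.05), a feedback phosphatase of the MAP kinase pathway, TBX3 (-0.07) and SEMA3C (0.03). On the receiving side, the VIP receptors VIPR1 and VIPR2 had log2 fold changes of 0.13 and -0.02, and GUCY1A1 and GUCY1B1, the subunits of the nitric oxide receptor guanylyl cyclase, -0.03 and 0.07. The 9 tested genes of this list had a median of -0.03.

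The second question was how far these genes follow the muscle of the sample. MYH11 itself ran from 2792 to 5886 CPM in control piglets (median 3738) and from 2351 to 5898 CPM in starch piglets (median 3909), with a log2 fold change of -0.04 (95% interval -0.41 to 0.33). Starch 10 was lowest and starch 6 highest, with no gap between clusters. In whole tissue, a higher share of neurons or muscle cells cannot be told apart from more RNA per cell. Other smooth muscle messages moved with MYH11 across piglets, 11 of 13 tested members of their list being positively correlated at an adjusted p under 0.05, with a median r of 0.80. The count was 5 and the median r 0.72 without control 5, control 8 and starch 3, where 0.70% of all tested genes passed with a positive r. ACTG2, DES, TPM2 and TAGLN, the 4 most abundant, had r of 0.78, 0.80, 0.83 and 0.80 with it. The exceptions were SYNPO2 (0.12) and HHIP (-0.37), which were picked out after their values were seen.

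Of the 7 genes, 5 were positively correlated with MYH11 across the 21 piglets and 2 were not. Correlations were taken on log2 CPM with a two-sided permutation test of 100000 resamples, adjusted over all 13126 genes other than MYH11. Among those genes 590 (4.49%) passed with a positive r and 363 (2.77%) with a negative r, and the middle value of r was 0.00. Both genes in each correlation come from the same library, so they share its depth and composition.

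TUBB3 came closest to MYH11, with a Pearson r of 0.84 (p = 1e-05, the smallest the resamples can give, adjusted p = 0.00212) and a Spearman rho of 0.84 (p = 2e-05). It ranked 32 of 13126 genes, and r was similar within control piglets (0.91) and within starch piglets (0.80). UCHL1 had r = 0.80 (p = 4e-05, adjusted p = 0.00477) and rho = 0.83 (p = 4e-05), with 0.75 in control and 0.85 in starch piglets. TUBB3 and UCHL1 passed with each single piglet left out. Without control 5, control 8 and starch 3, TUBB3 had an r of 0.77 (adjusted p = 0.0428) and UCHL1 one of 0.74 (adjusted p = 0.0438).

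ELAVL4 followed at r = 0.71 (p = 0.0003, adjusted p = 0.0141) and rho = 0.71 (p = 0.00043), with 0.70 within control and 0.77 within starch piglets. VIP had r = 0.69 (p = 0.00074, adjusted p = 0.0230) and rho = 0.67 (p = 0.00116), and SOX10 had r = 0.63 (p = 0.00169, adjusted p = 0.0340) and rho = 0.68 (p = 0.001). For VIP the value was 0.88 within control and 0.53 within starch piglets, and for SOX10 it was 0.65 and 0.64. The calls of these 3 genes rested in part on control 8. Without it r was 0.67 for ELAVL4 (adjusted p = 0.0562), 0.63 for VIP (adjusted p = 0.0869) and 0.56 for SOX10 (adjusted p = 0.143), while the number of genes correlated with MYH11 in the whole table fell from 953 to 283. The call of SOX10 was also lost without starch 5 (r = 0.60, adjusted p = 0.0804) and without starch 2 (r = 0.63, adjusted p = 0.0514). Without control 5, control 8 and starch 3 the r of ELAVL4, VIP and SOX10 was 0.58, 0.55 and 0.54, at adjusted p from 0.249 to 0.299, and 0.70% of all tested genes passed with a positive r.

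RET and NOS1 did not pass. RET had r = 0.33 (p = 0.144, adjusted p = 0.304) and rho = 0.21 (p = 0.358). Its r was 0.69 within control piglets and -0.09 within starch piglets. In edgeR the slopes of the 2 diets differed by -0.84 (95% interval -1.65 to -0.02, unadjusted p = 0.0452), a difference that did not pass over all genes (adjusted p = 0.453), where 0 genes (0%) passed and 11% had an unadjusted p under 0.05. NOS1 had r = -0.18 (p = 0.441, adjusted p = 0.607) and rho = -0.22 (p = 0.338) on TMM-scaled values, and r = 0.07 when the counts were scaled by library total alone. The r of RET was 0.52 on that scale (adjusted p = 0.0779). RET had r = 0.19 and NOS1 r = -0.12 without control 5, control 8 and starch 3. Leaving out starch 10 and starch 6, the piglets farthest from the middle of MYH11, gave r of 0.83 for TUBB3, 0.83 for UCHL1, 0.74 for ELAVL4, 0.64 for VIP, 0.71 for SOX10, 0.43 for RET and -0.12 for NOS1.

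**Figure D3:**
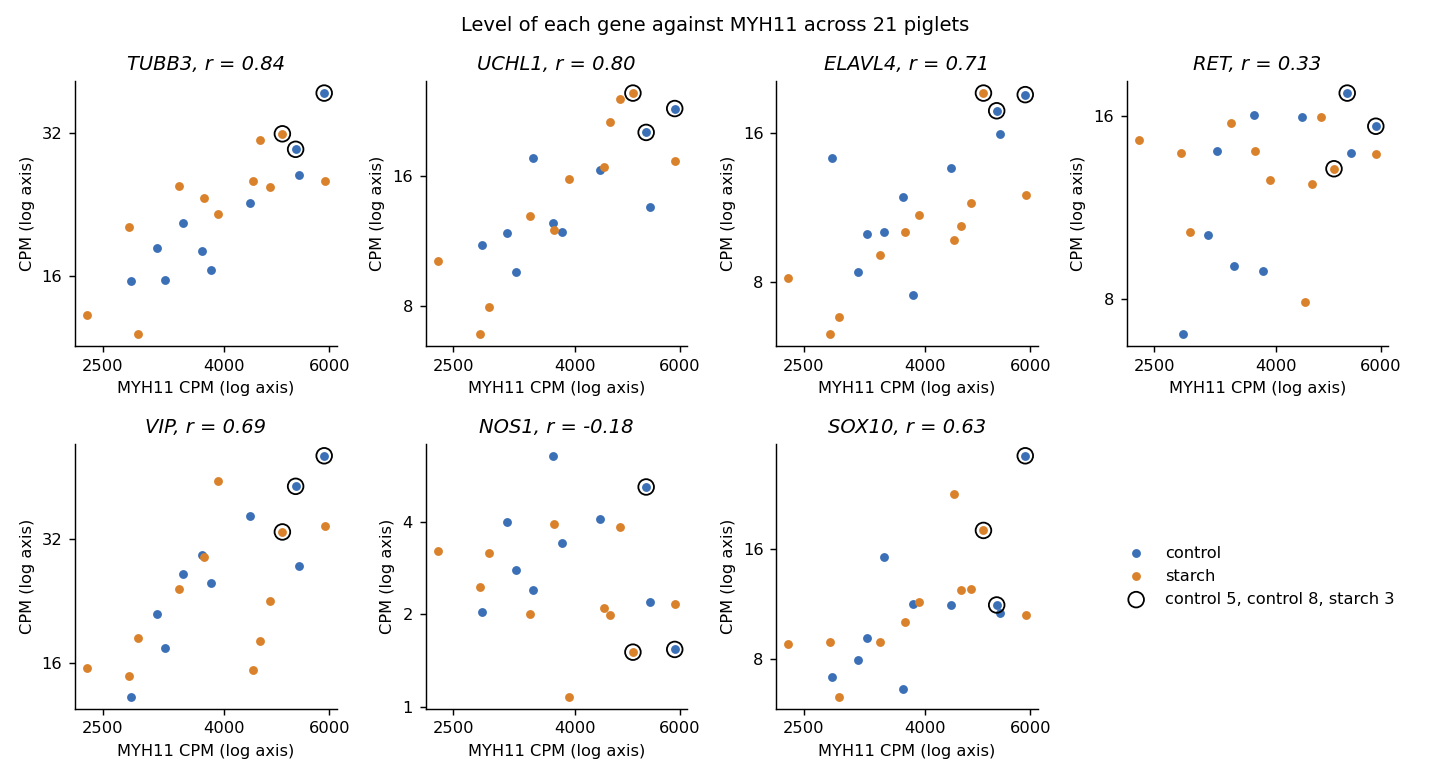
Each point is 1 piglet, with MYH11 CPM on the horizontal axis and the CPM of each gene on the vertical axis, both logarithmic, and rings mark control 5, control 8 and starch 3. TUBB3 rises steadily with MYH11 (r = 0.84) in both diets, while NOS1 shows no such slope (r = -0.18) and control 8 sits at the top for SOX10 but near the bottom for NOS1.

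The slope of this relation was estimated near 1, that is near proportional, for the genes that followed MYH11, but with wide intervals. In an edgeR fit with diet as a term, a doubling of MYH11 went with a log2 increase of 0.95 in TUBB3 (SE 0.15, 95% interval 0.63 to 1.27, adjusted p = 0.00102) and of 1.09 in UCHL1 (SE 0.20, 95% interval 0.68 to 1.49, adjusted p = 0.00240). The slopes were 1.02 for VIP (95% interval 0.51 to 1.52, adjusted p = 0.0139) and 1.00 for SOX10 (95% interval 0.46 to 1.53, adjusted p = 0.0225). The slope was 0.82 for ELAVL4 (95% interval 0.43 to 1.22, adjusted p = 0.0113), and all 5 intervals included 1. Those of RET, 0.29 (95% interval -0.14 to 0.72), and NOS1, -0.27 (95% interval -1.003 to 0.47), did not. This fit, added after the correlations had been seen, passed 9.12% of genes, and 795 (6.06%) with a positive slope.

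Dividing each gene by MYH11 narrowed the spread of some genes and widened that of others. Per 1000 CPM of MYH11, TUBB3 read 4.31 to 6.60 CPM on the control diet and 4.21 to 7.36 CPM on the starch diet, and the SD of its log2 level within diets was 0.44 before and 0.23 after the division. The SD went from 0.52 to 0.31 for UCHL1, from 0.44 to 0.30 for ELAVL4, from 0.55 to 0.40 for VIP and from 0.55 to 0.42 for SOX10. It went up from 0.37 to 0.44 for RET and from 0.55 to 0.74 for NOS1. With MYH11 as a covariate the diets still did not differ for any of the 7 in edgeR, 0 of 13126 genes (0%) passing over the whole table and 191 (1.46%) having an unadjusted p under 0.05. The log2 fold change at a given level of MYH11 was 0.12 for TUBB3 (95% interval -0.12 to 0.36), 0.07 for UCHL1, -0.27 for ELAVL4 (-0.57 to 0.03, unadjusted p = 0.0732), 0.07 for RET, -0.14 for VIP (-0.51 to 0.23), -0.48 for NOS1 (-1.02 to 0.06, unadjusted p = 0.0800) and 0.07 for SOX10 (-0.34 to 0.47). The adjusted p of each was 0.9999. That of VIP was -0.0696 without starch 11, -0.0805 without starch 8, -0.26 without starch 4, -0.0734 without control 5, control 8 and starch 3, and -0.29 with the smooth muscle list in place of MYH11.

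The 7 genes did not vary as a single block. TUBB3, taken as the anchor, was correlated across piglets with UCHL1 (r = 0.80, p = 2e-05, adjusted p = 0.00375; rho = 0.83, p = 1e-05), SOX10 (r = 0.73, p = 0.00014, adjusted p = 0.00978; rho = 0.71, p = 0.00051) and ELAVL4 (r = 0.66, p = 0.00108, adjusted p = 0.0189; rho = 0.62, p = 0.00355). Its r with VIP was 0.58 (p = 0.00565, adjusted p = 0.0371; rho = 0.50, p = 0.0222, adjusted p = 0.105), with 0.87 in control and 0.37 in starch piglets. The adjustment runs over all genes tested with the anchor, so the same pair can pass with one anchor and not with the other. TUBB3 and VIP had an adjusted p of 0.118 with VIP as the anchor. Of all tested genes 9.98% were positively and 10.4% negatively correlated with TUBB3 at that threshold. SOX10, taken as the anchor, passed with UCHL1 (r = 0.71, p = 0.00019, adjusted p = 0.00172; rho = 0.80, p = 2e-05) but not with ELAVL4 (r = 0.47, p = 0.0315, adjusted p = 0.0698; rho = 0.40, p = 0.0716). Without the 2 piglets farthest from the middle of TUBB3 the r of TUBB3 with UCHL1, SOX10, ELAVL4 and VIP were 0.75, 0.70, 0.57 and 0.52. The same values were 0.71, 0.61, 0.42 and 0.36 without control 5, control 8 and starch 3, where the r of SOX10 was 0.65 with UCHL1 and 0.16 with ELAVL4. TUBB3 with RET gave r = 0.37 (p = 0.1002, adjusted p = 0.208; rho = 0.22, p = 0.337), and with NOS1 it gave r = -0.34 (p = 0.138, adjusted p = 0.258; rho = -0.39, p = 0.0777).

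With RET or NOS1 as the anchor, none of the other genes of the set passed. The highest r of RET was 0.50, with VIP (adjusted p = 0.101). The r of NOS1 with SOX10 was -0.47 (p = 0.0314, adjusted p = 0.123 over all genes; rho = -0.42, p = 0.0603), and without the 2 piglets farthest from the middle of NOS1 it was -0.44. The value was -0.32 without control 5, control 8 and starch 3. Its r with VIP, the other inhibitory transmitter, was -0.06 (p = 0.784; rho = 0.01, p = 0.979), and with RET it was 0.26 (p = 0.252; rho = 0.41, p = 0.0638). The FPKM ratio of VIP to NOS1 ran from 43.2 to 314 in control piglets (median 75.3) and from 46.7 to 385 in starch piglets (median 70.5). It was highest in control 8 and starch 4, where NOS1 had 12 and 8 counts, and lowest in control 10 and starch 10. Counting error alone gives NOS1 a coefficient of variation of 20.6%, against 10.5% for SOX10 and for ELAVL4. The ratio of SOX10 to ELAVL4, a glial against a neuronal message, varied less, from 0.37 to 1.14 in control piglets (median 0.69) and from 0.65 to 1.68 in starch piglets (median 0.78). These ratios were added after the levels had been seen and were not tested.

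**Figure D4:**
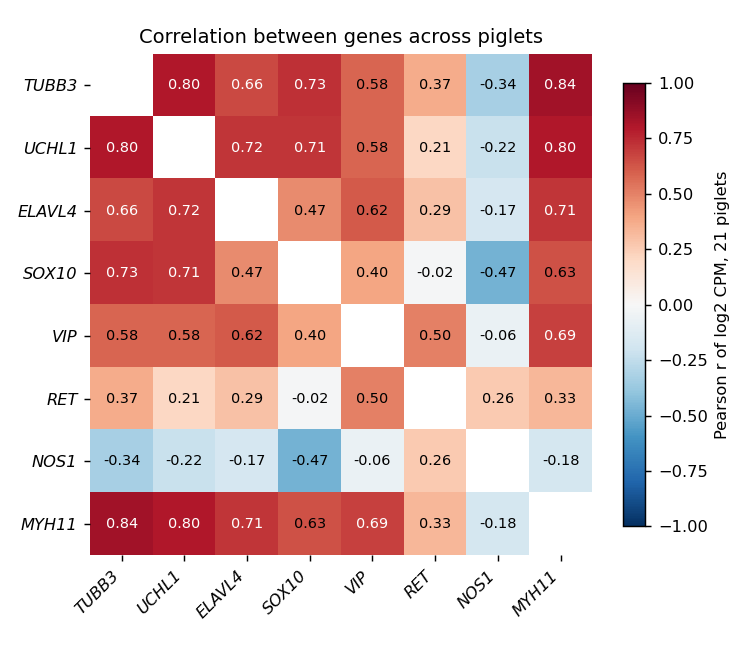
Each square gives the Pearson r of log2 CPM between a pair of genes across 21 piglets, with red for positive and blue for negative values on a scale of -1 to 1. TUBB3, UCHL1, ELAVL4, SOX10 and MYH11 form a block of r from 0.63 to 0.84 apart from SOX10 with ELAVL4 (0.47), the highest r of RET is with VIP (0.50), and NOS1 is at or below 0.26 with every other gene.

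For each of the 7, the other genes of the table were ranked by their r with it over the 21 piglets. The closest to TUBB3 were PRPH (r = 0.90), SLC18A3 (r = 0.90), the vesicular transporter of acetylcholine and so a marker of cholinergic neurons, and MYL9 (r = 0.89), a smooth muscle myosin light chain. Nearest to UCHL1 were MRGPRF (0.89), TGFB1I1 (0.89) and EEF1A2 (0.88), an elongation factor of neurons and muscle. ELAVL4 was closest to NES (0.87), the filament protein nestin, MAP1B (0.86) and MECOM (0.85). These 9 values had adjusted p between 0.00298 and 0.00583, and rho lay between 0.73 and 0.92. The genes named for TUBB3, UCHL1 and ELAVL4 had r of 0.67 to 0.90 with MYH11 as well. Positive and negative correlations passed for 5.87% and 5.32% of all tested genes with UCHL1 and for 9.62% and 12.3% with ELAVL4.

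The other genes gave different neighbours. RET was closest to NFYA (r = 0.86), a subunit of a CCAAT-binding transcription factor, DAGLA (0.84), which makes an endocannabinoid, and ZDHHC2 (0.84), and these had r of 0.05, 0.30 and 0.35 with MYH11. NOS1 was closest to PEG3 (0.80), to PRKG1 (0.79), the cGMP-dependent kinase that acts downstream of nitric oxide, and to NR2C2 (0.78), whose r with MYH11 were -0.16, -0.28 and -0.59. Positive and negative correlations passed for 5.21% and 3.63% of tested genes with RET and for 3.43% and 2.84% with NOS1. VIP was closest to GPSM2 (0.82), FUT10 (0.81) and MCAM (0.81), an adhesion molecule of vessels and smooth muscle. At an adjusted p of 0.0505 none of these 3 passed, and 0 genes of the table (0%) passed with VIP as the anchor, the adjusted p of VIP above being those with MYH11 or TUBB3 as the anchor. SOX10 was closest to DAD1 (0.92), a subunit of the enzyme that glycosylates proteins, EMD (0.92), a protein of the nuclear envelope, and PTRH2 (0.92), a mitochondrial hydrolase. Without the 2 piglets farthest from the middle of each anchor, the r of these 21 neighbours lay between 0.69 and 0.88, and without control 5, control 8 and starch 3 between 0.68 and 0.89. Of all tested genes 19.9% were positively and 20.7% negatively correlated with SOX10, the largest shares among the 7.

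The wider lists were read against MYH11 over the 21 piglets, where 4.49% of all tested genes passed with a positive r and 2.77% with a negative one. Of 17 tested neuronal genes 7 passed with a positive r and 0 with a negative one, with a median r of 0.29 against 0.00 over all genes. MAP1B (0.74), PRPH (0.83) and STMN2 (0.72) passed, while NEFL had r = 0.23. Of 12 transmitter genes 4 passed (median r = 0.50), which were SLC18A3 (0.70), GAL (0.70), TAC1 (0.65) and NMU (0.63). The 4 most abundant of that list did not pass, SCG2 at 0.48, SST at 0.01, DDC at -0.44 and TH at -0.53. These are also products of endocrine cells or epithelium, and whether that bears on their r was not tested. Glial genes passed in 3 of 9 cases (median r = 0.21), which were GAP43 (0.79), a protein of growing axons and glia, CRYAB (0.75) and ITGA7 (0.73). Smooth muscle also makes CRYAB and ITGA7. RET pathway and neural crest genes passed in 2 of 16 (median r = 0.18), which were HAND2 (0.84) and ETV4 (0.62), and the co-receptors GFRA1 and GFRA2 had r of 0.27 and 0.07. These counts depended on single libraries. With 1 piglet left out the positive calls ran from 5 to 8 for neuronal, 0 to 5 for transmitter and 1 to 3 for RET pathway genes. They stood at 3 for glial genes. Negative calls were 0 in each of these lists over the 21 piglets. Without starch 10 they were 2 transmitter, 2 RET pathway and 1 glial gene, and 1067 of 13065 tested genes. Without control 9 or starch 6 there was 1 in the RET pathway list, and 453 of 13172 or 995 of 13094 tested genes. The share of all tested genes passing with a positive r ran from 1.72% (without control 8) to 7.81% (without starch 6). The transmitter count was 0 without control 8 and 2 without control 5 or starch 5. The RET pathway count was 1 without control 1, 2, 5 or 8 or starch 1, 2 or 5. Without control 5, control 8 and starch 3 the counts were 1 of 17 neuronal, 0 of 11 transmitter, 1 of 9 glial and 1 of 16 RET pathway genes. The median r were 0.46, 0.46, 0.15 and 0.04, and 0.70% of all tested genes passed with a positive r.

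On the target side, VIPR2, the VIP receptor of smooth muscle, passed with r = 0.66 (adjusted p = 0.0250), and VIPR1, which epithelium makes, had r = -0.48 (adjusted p = 0.116). KCNMB1, a potassium channel subunit of smooth muscle, had r = 0.84, and GUCY1A1 and GUCY1B1 had r of 0.42 and 0.14. In this list 2 of 9 tested genes passed (median r = 0.42). The count was 1 of 9 without control 5, control 8 and starch 3 (median r = 0.27). Pacemaker cells of the gut wall were represented by KIT (0.28), ANO1 (0.56), ETV1 (0.56) and KITLG (-0.11), and 0 of these 4 passed. The adjusted p of ANO1 and ETV1 were 0.0646 and 0.0716. With 1 piglet left out, 2 of the 4 passed without starch 10 and 1 without control 2 or starch 8. In these settings 7.02%, 5.32% and 4.38% of all tested genes passed with a positive r. Levels of fibroblast genes moved with MYH11 too. Fibroblast genes passed in 5 of 8 cases with a median r of 0.69, in 3 without control 8 and in 0 without control 5, control 8 and starch 3 (median r = 0.59). In these last settings 1.72% and 0.70% of all tested genes passed with a positive r. Of the 4 most abundant fibroblast genes, COL1A1 (0.71), COL1A2 (0.76) and DCN (0.77) passed and COL3A1 (0.55) did not. Endothelial genes passed in 1 of 6 cases, PECAM1 (0.64), with a median r of 0.30. They passed in 0 cases without control 5, control 8 and starch 3 (median r = 0.11). The part of fibroblasts and endothelium in the correlations of the neuronal genes was not tested.

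**Figure D5:**
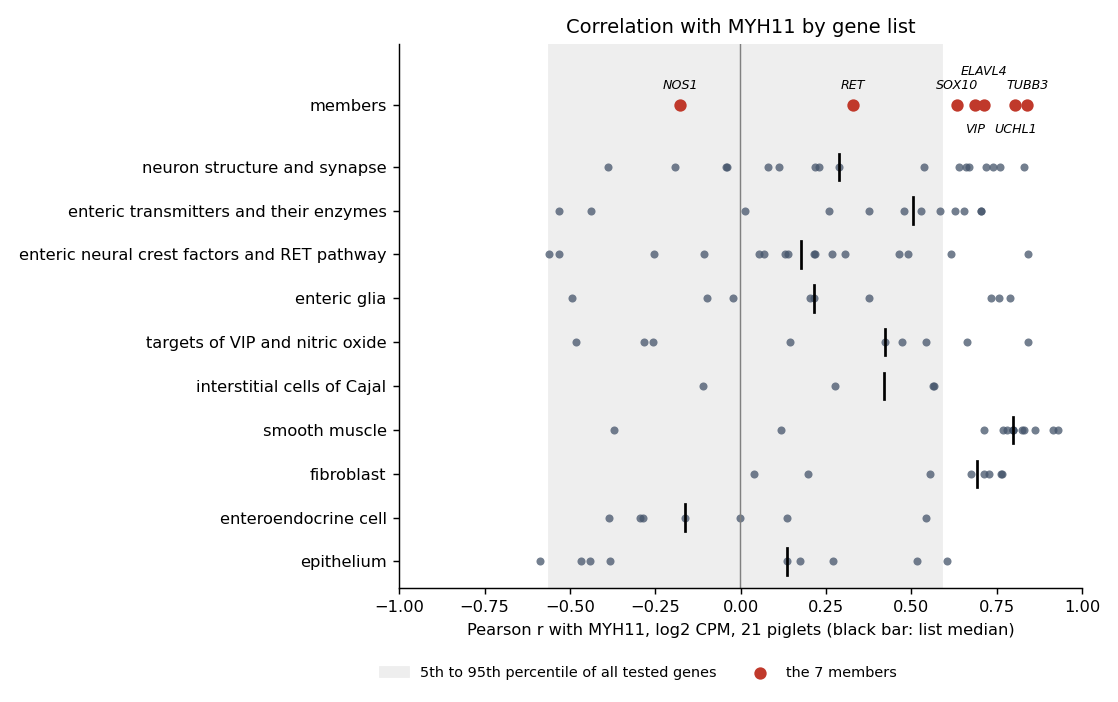
Each point is the Pearson r of 1 gene with MYH11 across 21 piglets, by gene list, with a black bar at each list's median and grey shading from the 5th to the 95th percentile of all tested genes (-0.56 to 0.59). TUBB3, UCHL1, ELAVL4, VIP and SOX10 lie to the right of the shading, RET and NOS1 lie inside it, and smooth muscle has the highest median, 0.80.

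Messages of cells that share some of these genes were read beside them. Enteroendocrine cells can make UCHL1 and several neuropeptides. Their summed marker level was 162 to 553 CPM in control piglets and 186 to 934 CPM in starch piglets. Of their 7 tested genes 0 passed with MYH11 (median r = -0.16). Of all tested genes 4.49% passed with a positive r and 2.77% with a negative one. CHGA, the granin of these cells, had r = 0.13 with MYH11. Myelinating Schwann cells also use SOX10. Their listed genes had a summed level of 12.95 to 26.1 CPM in control piglets and 14.9 to 41.7 CPM in starch piglets. MBP read 5.57 ± 2.10 and 5.92 ± 2.46 CPM in the 2 diets. PMP22, PRX and EGR2 had means of 7.88, 4.34 and 3.85 CPM over the 21 piglets. MAG and PMP2 had at most 1 and 3 counts in any piglet. Per unit of coding length, MBP had a median of 10.5 FPKM, against 6.80 for SOX10, and PMP22 stood higher than MBP. PRX and EGR2 lay below SOX10, at 1.02 and 2.25 FPKM. Of 5 matched fat cell genes, ADIPOQ and PLIN1 were under the filter on low counts. CIDEC, PLIN4 and FABP4 were tested, at mean levels of 32.7, 11.5 and 5.48 CPM. Their r with MYH11 were -0.52, 0.59 and 0.56, and 0 passed. B-cell markers summed to 9.87 to 141 CPM in control piglets (median 22.7) and to 8.90 to 627 CPM in starch piglets (median 14.7). The 4 tested B-cell genes had log2 fold changes of 1.36 to 1.93, 2 of them at an unadjusted p under 0.05 and none past the adjusted threshold. Epithelial markers summed to 4838 to 12790 CPM in control piglets and to 4591 to 9058 CPM in starch piglets, and their median r with MYH11 was 0.13. Single genes of that list ranged from -0.59 (APOA4) to 0.60 (KRT8), with 1 of 9 tested genes passing in each direction. Both calls were near the threshold, with an adjusted p of 0.0450 for APOA4 and just under 0.05 for KRT8. In both directions 0 passed when control 1, 3, 5, 6, 7, 8 or 10 or starch 1, 2 or 5 was left out. The same held without control 5, control 8 and starch 3, where 0.70% of all tested genes passed with a positive r. Smooth muscle markers summed to 7216 to 37660 CPM in control piglets (median 8940) and to 5003 to 22540 CPM in starch piglets (median 13660). The part of these cell types in the levels of the 7 genes was not tested.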

How the data were processed

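RNA sequencing of 21 piglet libraries was analysed from 1 deposited table per piglet that lists transcripts. The authors deposited, per the file headers, an expected count without normalisation and an FPKM value scaled for depth and length. HISAT and DESeq2 are named, per the submitters' processing notes, with neither role nor version. The counting program and the build were not given in the sources used here. Between 99.96 and 99.97% of lengths per file were multiples of 3, so they are coding lengths. Unlisted transcripts were taken as 0.

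Expected counts were summed per gene and rounded, and 14276 of 18661 genes (76.5%) matched a symbol. The main test was edgeR 4.0.16 (R 4.3.3) with TMM scaling and filterByExpr (minimum count 10, total 15), diet as the only term, and Benjamini-Hochberg adjustment at 0.05. CPM is TMM-scaled, and correlations used log2 CPM (prior count 2). Permutation tests were two-sided. Intervals rest on the fitted model. Alternatives were other scalings, filters and tools (limma 3.58.1 on log2 FPKM, DESeq2 1.42.0), MYH11 or the smooth muscle list as covariate, the replicate block, and leaving out piglets. Scaling by library total, lists, pairs and neighbours with libraries left out, and the edgeR slope and interaction fits were added after seeing the data. Scripts were tested on simulated data. Nothing in the labels ties piglets to litters. No 2 libraries agreed within sampling noise (smallest chi-square per degree of freedom 18.4).

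Members and lists were chosen with earlier results of these data known. Named genes are the members and MYH11, the 3 genes with the highest r for each member, the 4 tested genes of highest mean CPM in each list, and the receptors and ligands of RET, VIP and nitric oxide. Others were named after their values were seen. Some genes of the lists are not reported here by name. No sequence is shown, since none was used here.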

Additional observations from a re-analysis of the deposited data

Results flagged for a closer look

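Among the 10 control piglets, SOX10 in control 8 read 28.7 CPM, and the next control piglet read 15.2 CPM. The gap was large against the range of the group by Dixon's criterion (gap over range 0.61). Relative to MYH11 control 8 no longer stood out, at 4.88 CPM of SOX10 per 1000 CPM of MYH11 with the next control piglet at 4.47. ELAVL4 in control 2 was 5.08 CPM per 1000 CPM of MYH11, and the next control piglet was 3.36 (gap over range 0.55). Its ELAVL4 level itself, and the other genes of the set in that piglet, did not stand out by this criterion. In all, 15 sets of control values were examined, and chance flags about 1 in 20. The starch group, with 11 piglets, was not examined in this way.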

How the results depend on the processing

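The count of genes differing between the diets, with or without MYH11 as a covariate, was 0 under every alternative run. Unadjusted p was under 0.05 for 117 to 524 genes for diet (293 in DESeq2, 382 without control 5, control 8 and starch 3, 524 with no filter) and for 128 to 416 given MYH11. None of 410 diet estimates for the 7 genes had an adjusted p under 0.05, and 30 changed sign. With counts scaled by library total they were -0.0327 for TUBB3, -0.0136 for UCHL1 and -0.0463 for RET. With limma, UCHL1 was -0.04, -0.0385 and -0.0369 at pseudocounts of 0.1, 0.5 and 1 FPKM. NOS1 was under the filter there. Leaving out 1 piglet at a time gave -0.0161 to 0.18 for TUBB3, -0.0363 to 0.16 for UCHL1, -0.0373 to 0.0872 for RET and -0.15 to 0.23 for SOX10, and given MYH11 -0.0107 to 0.13 for RET and -0.0454 to 0.20 for SOX10. Without control 5, control 8 and starch 3 SOX10 was 0.18. With the smooth muscle list as covariate UCHL1 was -0.0464 and SOX10 -0.0411.

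With the replicate block (20 piglets) UCHL1 was -0.0136 and, given MYH11, SOX10 was -0.0327, and no call changed. No clear pairing by number was seen. Deviations of same-numbered piglets correlated at -0.34 to 0.48, above 0.1 in 4 of 10 pairs. In 0 of 10 was the closest match the piglet of the same number. A smaller effect of litter was not tested.

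The number of genes correlated with MYH11, 953, was 2032 when scaled by library total, 2019 on log2(FPKM + 0.5), 1197 by the edgeR slope, 106 without control 5, control 8 and starch 3, and 283 to 2017 when 1 piglet was left out (283 without control 8, 431 without starch 5, 1984 without starch 10, 2017 without starch 6). NOS1 had r of 0.0736 by library total and 0.10 on log2(FPKM + 0.5). The cause was not tested. NOS1 had the largest counting error of the 7 genes, a coefficient of variation of 20.6% against 45.1% observed.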
